A study of Drosophila melanogaster with 2 samples.

Results

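The mitochondrial ribosomal protein genes of Drosophila melanogaster were examined for calls of ADD1-GFP, a tagged chromatin protein, near their transcription starts. The genes were listed by a rule on names, as every gene of the Ensembl release 115 annotation whose symbol begins with mRpL (large subunit) or mRpS (small subunit). This group was chosen with earlier results of these data known. The rule found 73 genes, 47 of the large and 26 of the small subunit, among 18277 annotated genes and 13968 protein-coding genes. All 73 are protein-coding, and together they have 80 annotated starts, with 67 genes having 1 start.

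The binding data came from chromatin immunoprecipitation followed by sequencing (ChIP-seq) on whole embryos of both sexes, 0 to 16 h old. The flies were of the ADD1-MiMIC-GFP line, in which an eGFP exon placed in an intron of ADD1 yields an ADD1-GFP fusion from the endogenous gene. The fusion was precipitated with an antibody against GFP, while the labels' antibody field gives CG8290, which is ADD1 by another name. Chromatin had been sonicated to 200 to 800 bp. The 2 libraries, biological replicates 1 and 3, form 1 group from 1 fly line, and with no second condition analysed here nothing was compared between conditions. All cell types of the embryo are mixed, so a call cannot be tied to any of them.

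The mitochondrial ribosome makes the few proteins encoded by mitochondrial DNA, which are core subunits of the respiratory chain and of ATP synthase. Its RNA comes from the mitochondrial genome, but its proteins are encoded in the nucleus, made in the cytoplasm and imported. The large subunit forms peptide bonds and holds the exit tunnel, and the small subunit binds the messenger RNA and decodes it. ADD1 is a chromatin protein found at heterochromatin, with an ADD domain like that of ATRX in mammals.

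A short palindromic sequence close to the start was common among these genes, whether or not they carried a call. The sequence, CAGCTG, is a form of the E-box, the hexamer read by basic helix-loop-helix proteins. It lay with its centre within 50 bp of the furthest 5′ start in 35 of the 73 genes (47.9%), against 9.64% of protein-coding genes. The 50 bp limit was chosen after the positions had been seen. The first set below holds the 5 genes with the strongest calls among those whose E-box could be shown, and the second set holds 5 genes with no call. Each line gives 30 bases of the Release 6 assembly (dm6, as held by RefSeq), read 5′ to 3′ along the gene, with the E-box in capitals.
mRpL23, chr3L:2373715-2373744, minus strand: gtggttgacaatCAGCTGtttaaaacaagt
mRpL33, chrX:4322207-4322236, minus strand: gataggcgcagtCAGCTGttcttcgttcct
mRpS2, chr2L:4850413-4850442, minus strand: aacactacccacCAGCTGtttaccaaaatc
mRpS24, chr3R:24163508-24163537, minus strand: cgtcacgtcaatCAGCTGttgctggacgca
mRpL24, chr2L:4945324-4945353, minus strand: ttcagttctcaaCAGCTGattgcaagccgc
mRpL45, chr3R:22618471-22618500, plus strand: aatcacgtttgcCAGCTGgtcgcgttagtg
mRpL46, chr3L:1777425-1777454, plus strand: tgtgccgcaaatCAGCTGttccggctctgg
mRpS25, chrX:14582959-14582988, minus strand: tagccgaccgatCAGCTGttcgcattacac
mRpS34, chr3L:16348064-16348093, plus strand: agccagccggcaCAGCTGttcgaccttccc
mRpS35, chr3L:2780875-2780904, plus strand: agtttctgtaaaCAGCTGattgcttgctat
In these 10 genes the centre of the E-box lay between 25 bp upstream and 23 bp downstream of the start.

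The summits of the strongest calls lay mostly farther upstream. The next lines show up to 100 bp on either side of the summit for 4 of the 6 strongest calls, those at mRpL41 and mRpL23 not being shown. Capitals mark TCGATA (the core of the DNA replication-related element, DRE), GAGAGA, or TATAAA, on either strand. The windows of mRpS10 and mRpS23 hold no searched motif.
mRpS10, chr3R:15229430-15229629, plus strand: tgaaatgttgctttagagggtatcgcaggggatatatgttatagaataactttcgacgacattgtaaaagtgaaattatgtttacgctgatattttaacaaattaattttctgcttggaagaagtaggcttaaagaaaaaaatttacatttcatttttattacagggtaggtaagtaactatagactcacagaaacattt
mRpS23, chr2L:13835362-13835561, minus strand: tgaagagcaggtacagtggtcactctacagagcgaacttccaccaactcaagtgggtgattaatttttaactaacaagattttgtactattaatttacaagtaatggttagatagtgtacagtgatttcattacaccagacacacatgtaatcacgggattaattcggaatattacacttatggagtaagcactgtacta
mRpL4, chr2L:16329142-16329341, minus strand: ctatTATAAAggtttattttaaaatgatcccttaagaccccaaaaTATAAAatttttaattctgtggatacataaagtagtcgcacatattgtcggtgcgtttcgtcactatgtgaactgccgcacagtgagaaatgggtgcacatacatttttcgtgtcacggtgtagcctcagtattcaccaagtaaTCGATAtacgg
mRpL33, chrX:4322314-4322513, minus strand: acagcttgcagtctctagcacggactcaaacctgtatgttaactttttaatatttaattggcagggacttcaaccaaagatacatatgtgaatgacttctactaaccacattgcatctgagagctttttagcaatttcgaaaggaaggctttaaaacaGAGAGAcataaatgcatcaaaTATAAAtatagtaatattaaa
The window of mRpL4 holds 2 matches of TATAAA and 1 of TCGATA. The mRpL33 window, on the X, holds 1 GAGAGA and 1 TATAAA.

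Most mitochondrial ribosomal protein genes had an ADD1-GFP call at their start. Of the 73 genes, 58 (79.5%, 95% exact binomial interval 68.4 to 88%) had the summit of a pooled call within 500 bp of a start. The share was 49.3% of protein-coding genes and 44.5% of all genes. The pooled list holds 30000 calls made by the authors on the reads of both replicates, and the reproducibility procedure IDR kept 4402 of them. These kept peaks were the 4402 pooled calls with the highest signal, the value that the authors' caller gave each call, and they started at a signal of 96.4. Signal depends on the library, so ranks within a list are used here, with 1 as the strongest. A kept peak was present at 31 of the 73 genes (42.5%, interval 31 to 54.6%), against 22.9% of protein-coding genes and 19% of all genes. Among genes with a call, 31 of 58 (53.4%) had a kept peak, and the share was 46.5% for protein-coding genes. The median rank of the strongest call was 3921 over the 58 genes and 4816 over protein-coding genes with a call. Neither comparison takes account of neighbouring genes, by which both values are split below. Intervals cover counting error only and treat genes as independent. The read depth of the libraries is unknown, so no floor can be set for a gene without a call.

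Both subunits were represented. Of 47 large-subunit genes 40 had a call and 21 a kept peak, with a median rank of 4125.5. Of 26 small-subunit genes 18 had a call and 10 a kept peak, with a median rank of 2990. The intervals of both shares overlapped between the subunits, at 71.7 to 93.8% of large-subunit and 48.2 to 85.7% of small-subunit genes with a call.

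Among large-subunit genes the strongest call was at mRpL41, which codes for a large-subunit protein with no bacterial counterpart. Its signal was 270.1 (rank 49) in replicate 1 and 428 (rank 16) in replicate 3, and 691.5 (rank 29) in the pool, with the summit 144 bp upstream of the start. The call at mRpL4, whose bacterial counterpart lines the peptide exit tunnel, ranked 65 in replicate 1, 81 in replicate 3 and 73 in the pool. This peak lay on chr2L:16329083-16329399, with the summit in intergenic sequence 110 bp upstream, and it reached no start of another gene. mRpL23, whose bacterial counterpart sits at the mouth of the exit tunnel, ranked 90 in replicate 1, 80 in replicate 3 and 78 in the pool. Its summit was in the gene's own 5′ untranslated region, 43 bp downstream of a start. The call at mRpL33 ranked 56 in replicate 1, 162 in replicate 3 and 91 in the pool, with the summit 183 bp upstream. mRpL42 ranked 424 in replicate 1, 793 in replicate 3 and 586 in the pool. mRpL24, whose bacterial counterpart acts early in assembly of the large subunit, ranked 1777 in replicate 1, 396 in replicate 3 and 716 in the pool. Its summit was nearer to the start of the neighbouring gene betaggt-I. The first 4 of these 6 genes were thus among the strongest 100 calls of the pool, while mRpL24 moved most between the replicates.

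Among small-subunit genes mRpS10 had the strongest call, and it was also the strongest of all 73. Its signal was 328.3 (rank 25) in replicate 1 and 525.4 (rank 8) in replicate 3, and 852.9 (rank 13) in the pool. The peak lay on chr3R:15229378-15229702, and its summit, 135 bp upstream of mRpS10, fell between that gene and the divergent gene Art3, which codes for an arginine methyltransferase. mRpS23 had signals of 324.4 (rank 27) in replicate 1 and 387.6 (rank 24) in replicate 3, and 714.1 (rank 25) in the pool. Its summit was the farthest from its gene, 390 bp upstream and nearer to the start of CenG1A, which codes for an Arf GTPase-activating protein. mRpS2 ranked 530 in replicate 1, 517 in replicate 3 and 478 in the pool, with Mon1, a gene of endosome maturation, on the other side of the summit. The call at mRpS24, which codes for the counterpart of bacterial S3, ranked 572 in replicate 1, 956 in replicate 3 and 646 in the pool. mRpS26 ranked 2207, 3387 and 2461 in the same order of lists. mRpS7, whose bacterial counterpart binds the small-subunit RNA early in assembly, ranked 1973, 3617 and 2515. A gap in rank therefore separated the first 4 small-subunit genes from the next. Like that of mRpS23, the summits at mRpS10, mRpS2, mRpS24 and mRpS26 were nearer to the start of the divergent gene.

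Over both subunits, 6 of the 73 genes had a call ranked within the strongest 100 and 10 within the strongest 1000. The same counts were 91 and 894 of the 13968 protein-coding genes. At the other end, signals went down to 37.4, with a median of 104 over the 58 genes.

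**Figure D1:**
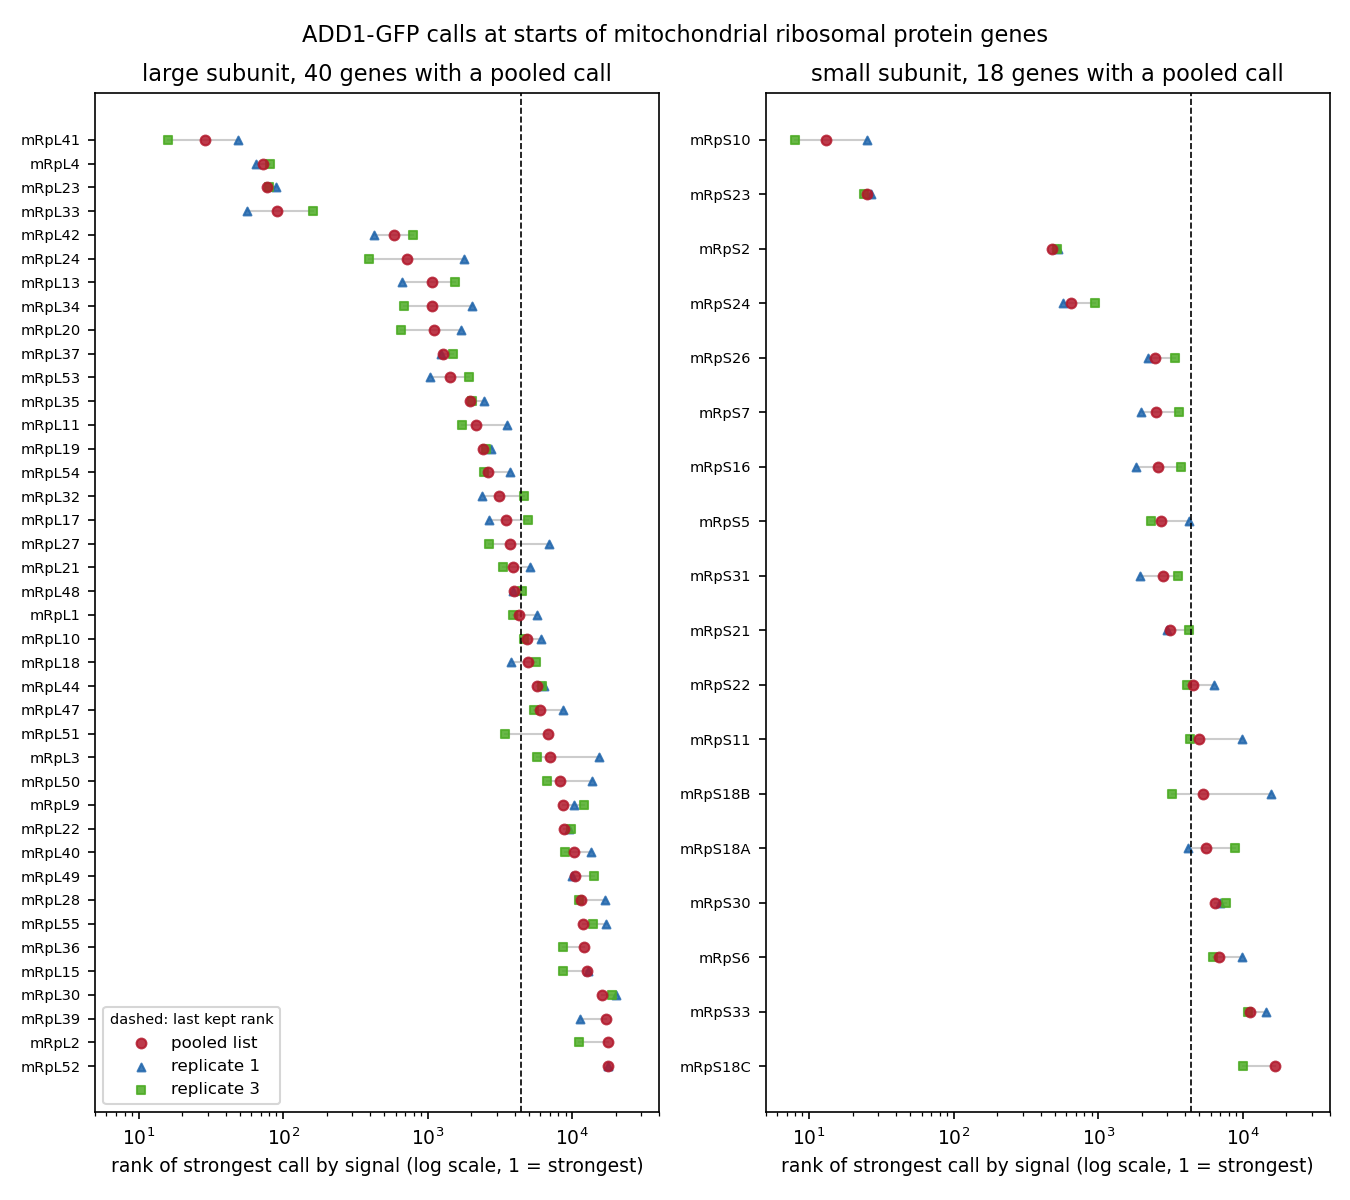
Rank of the strongest call within 500 bp of a start (log axis, 1 is the strongest) for the 58 mitochondrial ribosomal protein genes with a pooled call, in the pooled list (circles), replicate 1 (triangles) and replicate 3 (squares), with large-subunit genes on the left and small-subunit genes on the right. The dashed line marks rank 4402, the last kept peak, and 31 circles lie to its left, 6 of them at ranks below 100.

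The kept threshold cut through a continuous range of values. The genes just inside it were mRpL1 (signal 97.83, rank 4314), mRpL48 (104.1, rank 3937) and mRpL21 (104.6, rank 3905). Just outside were mRpS22 (94.11, rank 4562), mRpL10 (89.46, rank 4886) and mRpL18 (88.96, rank 4922). A kept peak and the lack of one therefore differ by little signal for these 6 genes.

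A call was found in replicate 1 at 56 genes and in replicate 3 at 58, in both at 54 and in neither at 13. All 31 genes with a kept peak had a call in both replicates. Kept peaks passed a reproducibility procedure on these same libraries, so this count is no separate measure of agreement. Among the 4402 strongest calls of each replicate alone, replicate 1 gave 30 of the 73 genes (41.1%, against 22.4% of protein-coding genes) and replicate 3 gave 33 (45.2%, against 23.3%). Both gave 25 of the 73 genes, against 2601 of the 13968 protein-coding genes. A further 13 of the 73 were given by 1 replicate only. Across the 54 genes called in both, log2 signal had a Pearson r of 0.92 and a Spearman rho of 0.87, and across 6179 protein-coding genes the values were 0.848 and 0.832. These are correlations across genes, which share the libraries and the control file and are not independent replicates. Ranks differed by a median of 1560.5 between the replicates.

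The gene with the largest difference was mRpS18B, at rank 15770 in replicate 1 and 3229 in replicate 3. mRpL3 followed, at rank 15321 in replicate 1 and 5751 in replicate 3. mRpL50 was at rank 13645 in replicate 1 and 6701 in replicate 3. All 3 ranked higher in replicate 3, as did 33 of the 54 genes called in both, and none of the 3 had a kept peak. The largest number of pooled calls at any gene was 2, found at 11 of the 58 genes with a call. Of the 6881 protein-coding genes with a call, 2626 had 2 or more. Among called genes with 1 start, the counts were 11 of 53 and 1168 of 4244. The 11 genes were mRpL3, mRpL15, mRpL20, mRpL30, mRpL35, mRpL41, mRpL53, mRpS16, mRpS24, mRpS26 and mRpS31. The 69 calls at the 58 genes were all distinct, so no call was shared by a pair of mitochondrial ribosomal protein genes.

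No pooled call was placed at 15 genes. The large-subunit genes among them were mRpL12, whose bacterial counterpart forms the stalk that recruits translation factors, mRpL14, mRpL16, mRpL38, mRpL43, mRpL45 and mRpL46. The small-subunit genes were mRpS9, mRpS14, mRpS17, mRpS25, mRpS28, mRpS29 (the fly counterpart of the GTP-binding protein DAP3), mRpS34 and mRpS35. Their nearest pooled summit lay 608 to 21435 bp from a start, with a median of 5051 bp. At least 97.6% of the 32-base words within 500 bp of the furthest 5′ start of each gene occurred once in the genome. For genes with a call the lowest value was 99.3%. The median GC content of the promoter window, 250 bp before to 50 bp after the start, was 34.7% for genes with a call and 35.7% for genes without.

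mRpS17 was an exception among these 15 (singled out after its values were seen). It had a call in both replicates, with a signal of 45.36 (rank 4781) in replicate 1 and 62.38 (rank 3416) in replicate 3, yet the nearest pooled summit was 11247 bp away. Such gaps in the pooled list were few. Of the 4402 strongest calls, 67 in replicate 1 and 61 in replicate 3 overlapped no pooled call, and 31 and 36 of these overlapped a call of the other replicate. mRpS29 had a weak call in both replicates, at rank 22046 in replicate 1 and 20237 in replicate 3. The other 13 genes had no call in either list.

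Summits lay mainly upstream of the genes. The strongest summit was upstream of the nearest start of its gene at 52 of 58 genes (89.7%), against 81.6% of protein-coding genes with a call. It was within 250 bp upstream at 46 (79.3%), against 62.8%. Positions split by neighbouring gene are given below. Minus marks bases upstream. The median position was −122.5 bp for the 58 genes and −100 bp for protein-coding genes, and the quartiles of the 58 genes were −183 and −58 bp. For kept peaks the median was −139 bp, with 28 of 31 upstream. After mRpS23, the summits farthest from a start were those of mRpL3 (−339 bp) and mRpL30 (−330 bp). By annotation, 39 of the 58 summits were intergenic, 14 were in a 5′ untranslated region (6 of these in that of the gene itself), 4 were in introns and 1 was in a coding exon. Most summits thus fell in intergenic sequence upstream of the gene. These placements were counted for the 58 genes only, with no share over protein-coding genes to set beside them.

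**Figure D2:**
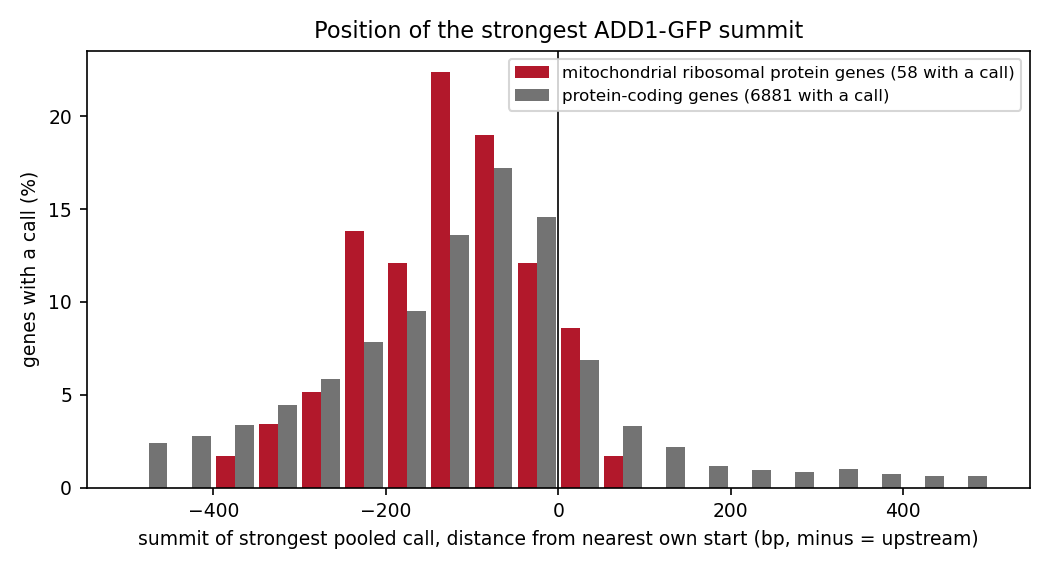
Position of the strongest pooled summit relative to the nearest start of the gene, in bp along the direction of transcription (minus is upstream), as the percent of genes with a call in each 50 bp bin, for the 58 mitochondrial ribosomal protein genes (red, left bar of each pair) and 6881 protein-coding genes (grey). The red bars run from −390 to 62 bp, with 52 of 58 summits upstream.

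Most of these genes had the start of another gene close upstream. Of the 73 genes 53 (72.6%) had a divergent neighbour, a gene on the other strand with a start from 100 bp downstream to 500 bp upstream, against 29.9% of protein-coding genes. All 53 neighbours are protein-coding. The gap between the starts ranged from 20 to 499 bp, with a median of 264 bp, and the median over protein-coding genes with such a neighbour was 238 bp. The closest pairs were mRpL18 with Taz, the gene of the cardiolipin remodelling enzyme tafazzin, at 20 bp, mRpS14 with Naa15-16, an N-terminal acetyltransferase subunit, at 21 bp, and mRpL23 with CG9004 at 24 bp.

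A call at a divergent pair cannot be given to 1 of its genes. Of the 58 strongest calls 49 were also within 500 bp of a start of another gene, and 9 were not. The nearest start to the summit belonged to the mitochondrial ribosomal protein gene in 31 cases and to another gene in 27. For the 31 genes with a kept peak, the split was 16 and 15. Among the 46 divergent genes with a call, the summit lay between both starts in 30, and for kept peaks in 20 of 26. These counts were made for the mitochondrial ribosomal protein genes only, so they are not shown to be particular to them. The summit was upstream in 89.1% of the 46 genes, against 87.5% of divergent protein-coding genes with a call. The median positions were −131.5 and −116 bp. Without a divergent neighbour it was upstream in 91.7%, against 77.1%, with medians of −96.5 and −84 bp.

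Calls were counted apart for genes with and without a divergent neighbour. Of the 53 divergent genes 46 (86.8%, interval 74.7 to 94.5%) had a call and 26 (49.1%, interval 35.1 to 63.2%) a kept peak. Divergent protein-coding genes had a call in 70.6% and a kept peak in 43.3%. Of the 20 genes without such a neighbour 12 (60%, interval 36.1 to 80.9%) had a call and 5 (25%, interval 8.66 to 49.1%) a kept peak, and the shares for protein-coding genes of that kind were 40.1% and 14.2%. The intervals of both classes overlapped, and the difference between the classes was not tested. Within each class the difference from protein-coding genes was thus smaller than over all genes, for which the kept share was 42.5% against 22.9%. Among divergent genes with a call, 56.5% had a kept peak, against 61.2% of such protein-coding genes. Their median rank was 3802, against 3330, so here the protein-coding genes had the stronger calls. Without a divergent neighbour the values were 41.7% against 35.5%, and 5966.5 against 6682.

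The share with a kept peak differed with the gap between the starts, at a boundary of 100 bp chosen after the values were seen. With a gap under 100 bp, 15 of 18 genes (83.3%) had a call but 4 (22.2%, interval 6.41 to 47.6%) had a kept peak. The protein-coding genes of that class had a call in 65.7% and a kept peak in 34.4%. With a gap of 100 to 500 bp, 31 of 35 genes (88.6%) had a call and 22 (62.9%, interval 44.9 to 78.5%) a kept peak. The protein-coding genes of that class had a call in 72.2% and a kept peak in 46%. The intervals of the kept share overlapped slightly between the gap classes, at 44.9 to 47.6%, and the difference was not tested. The 4 genes with a gap under 100 bp and a kept peak were mRpL23, mRpL27, mRpL48 and mRpS16.

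**Figure D3:**
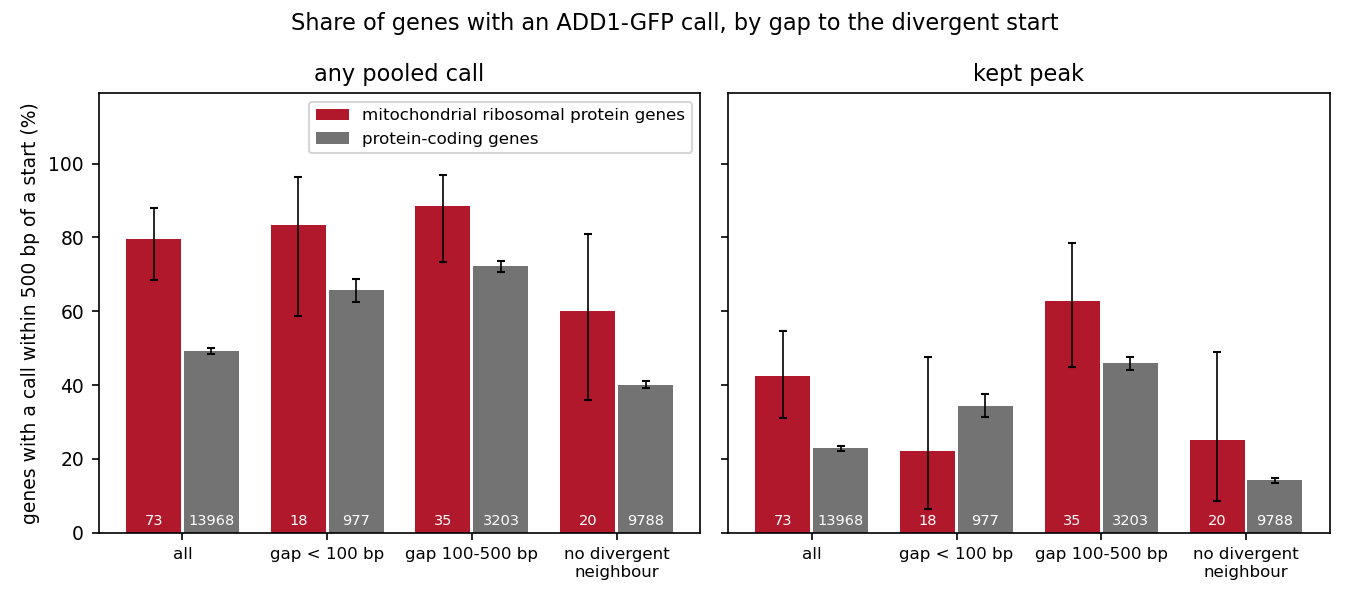
Percent of genes with any pooled call (left) and with a kept peak (right) within 500 bp of a start, for mitochondrial ribosomal protein genes (red) and protein-coding genes (grey), over all genes and by the gap to a divergent start, with 95% exact binomial intervals and the number of genes printed in each bar. For kept peaks the red bar is 22.2% at gaps under 100 bp and 62.9% at gaps of 100 to 500 bp, and the grey bars are 34.4% and 46%.

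By chromosome, genes on the X stood lowest. Of 11 genes on the X, 6 (54.5%) had a call and 1 (9.09%, interval 0.23 to 41.3%), mRpL33, a kept peak, against 58.7% and 25% of protein-coding genes on the X. On 2L, 12 of 12 genes had a call and 8 a kept peak, against 47% and 22.5% of protein-coding genes there. On 3R, 19 of 21 had a call and 9 a kept peak, against 45.7% and 21.6%. On 3L, 13 of 17 had a call and 7 a kept peak, against 49.4% and 24.2%. On 2R, 8 of 12 had a call and 6 a kept peak, against 47.3% and 21.6%. No gene lay on chromosome 4 or Y. mRpS5 was the 1 gene beyond 23 Mb on 3L, in pericentric sequence, and its kept peak ranked 4262 in replicate 1, 2302 in replicate 3 and 2732 in the pool, with the summit in an intron of the gene, 7 bp from a start.

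The E-box stood out among the motifs counted. In the promoter window, CAGCTG was present in 40 of 73 genes (54.8%), against 17.6% of protein-coding genes. The other 9 forms of CANNTG were counted for comparison after this value was seen. Of these CAAATG was the most frequent, in 27.4% of the genes, against 26% of protein-coding genes, and CACGTG was in 6.85%, against 4.2%. By position, 24 matches of CAGCTG were centred from 0 to 49 bp downstream of the start and 12 from 1 to 50 bp upstream, or 32.9 and 16.4 matches per 100 genes. The protein-coding genes had 4.98 and 5.3 matches per 100 genes in the same bins.

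The E-box was found at genes with and without a call. Within 50 bp of the start it was found in 17 of 31 genes with a kept peak (54.8%), 10 of 27 with a weaker call only (37%) and 8 of 15 with no call (53.3%). Over protein-coding genes with a kept peak the share was 13.2%. It was present in 23 of 47 large-subunit genes (48.9%) and 12 of 26 small-subunit genes (46.2%). In the 27 genes with both a call and such an E-box, the strongest summit was a median of 150 bp from it, with a range of 10 to 294 bp, and within 50 bp in 2 genes. These are matches of letters in the reference sequence, and whether any factor binds them was not tested.

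**Figure D4:**
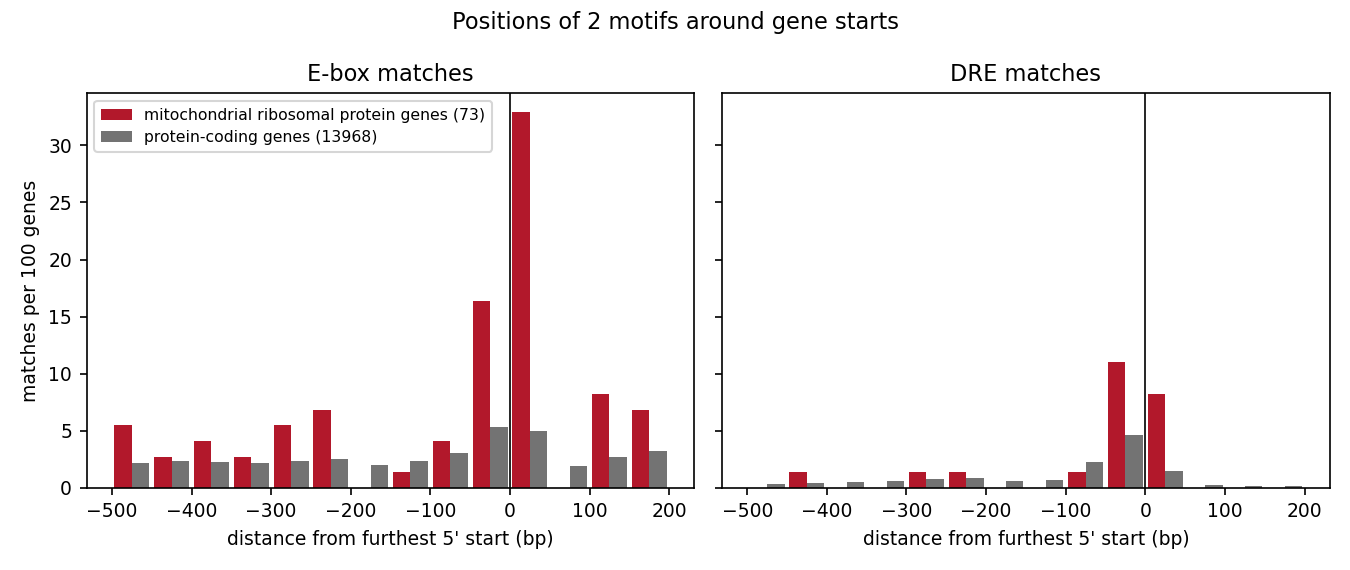
Matches per 100 genes in 50 bp bins from 500 bp upstream to 200 bp downstream of the furthest 5′ start, for CAGCTG (left) and TATCGATA (right), in the 73 mitochondrial ribosomal protein genes (red, left bar of each pair) and 13968 protein-coding genes (grey). The highest red bars for CAGCTG are the 2 bins next to the start, at 16.4 and 32.9 matches per 100 genes, where the grey bars are at 5.3 and 4.98.

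The DRE, TATCGATA, bound by the transcription factor DREF at many fly housekeeping genes, was found in the promoter window of 15 of 73 genes (20.5%), against 9.36% of protein-coding genes. The first 8 by symbol number were mRpL3, mRpL4, mRpL10, mRpL12, mRpL16, mRpL17, mRpL19 and mRpL20. A DRE lay within 50 bp of the start in 14 genes (5.78% of protein-coding genes), and 44 of the 73 had a DRE or a CAGCTG there, 5 of them both. Its core TCGATA, which the DRE contains, was in 49.3% of the genes, against 27.7%. The DRE was found in 6 of 31 genes with a kept peak and 9 of the other 42. Around the strongest summit, 100 bp on either side, the DRE was present at 5 of 58 genes (8.62%), against 10.4% of protein-coding genes with a call, and CAGCTG at 10 (17.2%), against 12.8%. TCGATA was present there at 18 (31%), against 27.8%, and TATAAA at 21 (36.2%), against 32.5%.

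The remaining motifs differed by fewer percentage points from their share over protein-coding genes in the promoter window. There, GGTCACAC, the element of the factor M1BP, and GGTATTT, a core promoter motif, were each in 8 genes (11%), against 7.69% and 9.87%. GAGAGA was in 5 genes (6.85%), against 12.3%, and TATAAA in 34 (46.6%), against 45.8%. The site of the NRF-1 family, GCGCATGC, was found at mRpL21 only (1.37%, against 1.05%). The NRG element of fly genes of energy metabolism had 0 matches in this window, against 0.873% of protein-coding genes, and 1 match, at mRpL55, in the windows around the summits (1.72%, against 0.596%). An arbitrary control octamer, ACGTTACG, was at mRpL55 only (1.37%, against 0.43%). A wider window, 500 bp before to 100 bp after the start, held GGTCACAC in 14 genes (19.2%, against 9.8%). GGTATTT was in 16 genes (21.9%, against 16%) in that wider window, and the DRE in 16 (21.9%, against 11.6%). All motifs were read on both strands.

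Other nuclear genes of mitochondrial translation and gene expression, set beside the ribosomal proteins, had a kept share of 16.7%, against the 42.5% above, with intervals that overlap. The list holds 36 genes, 21 named factors and 15 mitochondrial aminoacyl-tRNA synthetases, which charge the transfer RNAs. Of the 21 factors, 10 were listed for mitochondrial transcription and RNA handling, and 3 of these 10 had a kept peak. Of all 36 genes, 21 (58.3%) had a call and 6 (16.7%, interval 6.37 to 32.8%) a kept peak. The kept peaks were at SLIRP2 (rank 143) and SLIRP1 (rank 2898), which code for RNA-binding proteins, PheRS-m (rank 1209), a synthetase, mTerf3 (rank 2676), of the mitochondrial termination factor family, mIF2 (rank 2964), an initiation factor, and mEFTu2 (rank 3780), an elongation factor. tko, which codes for the small-subunit protein counterpart to bacterial S12 under another kind of symbol, ranked 7700 in replicate 1, 6799 in replicate 3 and 6177 in the pool, below the threshold. bonsai, which codes for the counterpart to bacterial S15, had no pooled call. CAGCTG lay within 50 bp of the start in 18 of these 36 genes (50%), close to the 47.9% of the mitochondrial ribosomal protein genes.

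The genes of the cytoplasmic ribosome, which makes the proteins encoded in the nucleus, had the highest shares of the groups compared. Of 93 such genes 82 (88.2%) had a call and 71 (76.3%, interval 66.4 to 84.5%) a kept peak, with a median rank of 1875. The mitochondrial ribosomal protein genes, with a kept share of 42.5% (interval 31 to 54.6%) and a median rank of 3921, lay between this group and protein-coding genes, and the interval of their kept share did not overlap that of the cytoplasmic genes. A divergent neighbour was present at 72.6% of the mitochondrial and 41.9% of the cytoplasmic ribosomal protein genes. The median summit position was −122.5 bp at the mitochondrial genes and −41 bp at the cytoplasmic ones. CAGCTG lay within 50 bp of the start in 35 of 73 mitochondrial genes (47.9%) and 7 of 93 cytoplasmic ones (7.53%). No test was made between the groups, since lists of genes are not replicates.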

How the data were processed

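The deposited dm6 peak lists were used: 1 per replicate, 1 on the pooled alignments, and the list kept by IDR from these. The authors used 1 shared control file for the calls, as the deposited file lists state. Neither the aligner nor the caller is given in the sources used here. Signal values are those of the authors' caller, on a scale of their own in each library. The summit offset, a number of bases into each call, is the authors' as deposited. All coordinates are 1-based.

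Genes and starts came from Ensembl release 115, on the same Release 6 assembly as the RefSeq sequence. A call was at a gene when its summit lay within 500 bp of any start, and the strongest such call was used. The promoter window ran from 250 bp before to 50 bp after the furthest 5′ start. Intervals are 95% exact binomial (Clopper-Pearson). Placement was checked on simulated data. Python 3.11.15, numpy 2.4.6, scipy 1.17.1 and matplotlib 3.10.9 were used.

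The genes and lists were chosen with earlier results of these data known. Values are descriptions with no test, as the 2 libraries form 1 group. Genes named are the 6 strongest of each subunit, those with no call, 3 on either side of the threshold, the 3 largest replicate differences, those with the most calls, the 3 closest pairs, the 3 farthest summits and up to 8 with a motif. Alternatives were other windows, placements, thresholds, gap limits and each replicate alone. The dm3 lists were not used.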

Additional observations from a re-analysis of the deposited data

How the results depend on the processing

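No paired analysis was possible because the 2 replicates form 1 group. Of 34 alternatives, 26 kept a count within 1.5 times, or a median within 1 SD of the replicates' values, of that reported, and 8 did not. That SD comes from the same 2 replicates that give some of the alternatives. The limit for counts takes no account of changes in the protein-coding share, so the tally does not measure robustness. The sign reversed in 0, but only the median position could change sign, since counts and ranks are positive. Of the 73 genes, 17 had a peak among the 2201 strongest kept ones (13.2% of protein-coding genes). Taking the nearest call in place of the strongest gave a median rank of 4577 and a median position of −113 bp. The median position was −141.5 to −131.5 bp with 1 replicate alone. A gap of up to 250 bp left 25 genes with a divergent neighbour (16.1% of protein-coding genes). With the gap classes split at 50 bp, 2 of 9 genes below it had a kept peak (31.6% of protein-coding genes), and at 150 bp 6 of 20 (34.6%), both boundaries added after the data were seen. The DRE was found at 5 genes around the summit. Each replicate alone gave 56 to 58 genes with a call (50.4 to 50.5% of protein-coding genes). Its 4402 strongest calls gave 30 to 33 genes (22.4 to 23.3%), and the median rank was 3842 to 4029. Those strongest calls gave 5 genes at gaps under 100 bp (33.3 to 34.2% of protein-coding genes). At wider gaps they gave 20 to 23 (43.7 to 47.2%). A distance of 200 bp gave 48 genes with a call (38.8% of protein-coding genes) and 23 with a kept peak (17.4%), and 1000 bp gave 60 (54.7%) and 32 (25.3%). CAGCTG within 25 bp of the start was found in 28 genes (5.93% of protein-coding genes) and within 100 bp in 38 (14.1%), both distances added after the data were seen. The depth of the libraries is unknown, so a gene without a call is not shown to lack ADD1.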
